A study of Mus musculus with 9 samples.

Results

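The genes described here are 9 regulators of neural and glial progenitors, a list drawn up by name with earlier results of these data known: the basic helix-loop-helix factors Olig1 and Olig2, the SOX factors Sox2 and Sox10, the homeodomain factor Nkx2-2, the POU factors Pou3f2 and Pou3f3, the bHLH-PAS factor Npas3 and the RNA-binding protein Msi1. All 9 were found among the 49315 genes of the count table. RNA-seq was performed on 9 libraries, 3 each of astrocytes, mKate2- SB28 cells and mKate2+ SB28 cells, all sorted from the same kind of co-culture. SB28 is a mouse glioblastoma (GBM) cell line, here expressing GFP. The astrocytes were primary cells from the subventricular zone of neonatal C57BL6 mice that express mito::mKate2, a red fluorophore targeted to mitochondria, from the ubiquitous CAG promoter. SB28 cells and astrocytes were mixed in equal numbers and kept together for 2 days in medium with serum, N2 supplement and 20 ng/ml each of EGF and FGF, the serum and N2 percentages differing between the labels and the study's methods. SB28 cells that carried red mitochondria acquired from astrocytes were sorted as mKate2+ and those that did not as mKate2-. Every group therefore shared the co-culture and its growth factors, and cells grown alone were not analysed here. The 3 libraries of a group came from separate co-cultures, which the groups shared, but SB28 is a single line, so the spread between its libraries is not a spread between tumors.

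Olig1 and Olig2 are transcription factors of the oligodendrocyte lineage that also mark many gliomas, and Sox10 acts with them as cells commit to that lineage. Sox2 maintains neural stem cells, Pou3f2 (Brn2) and Pou3f3 (Brn1) are partners of SOX factors in neural progenitors, and Nkx2-2 acts in ventral progenitors and in oligodendrocyte differentiation. Msi1 (Musashi-1) binds RNA and regulates translation in neural stem cells, and Npas3 is a transcription factor of neural progenitors and astrocytes. OLIG2, SOX2 and POU3F2 are known in human GBM as part of a set of factors that can impose a stem-like state on tumor cells.

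The astrocyte libraries held 24454561 to 35135662 counts each, the mKate2- libraries 27187348 to 35891589 and the mKate2+ libraries 34175016 to 39287841. Levels are given as CPM (counts scaled to a common library total), in the order of replicates 1, 2 and 3. Some libraries stood apart before any comparison was made. mKate2+ replicate 2 differed from the other two of its group by 134 and 121 in chi-square over its degrees of freedom, against 15.8 between those others. Among the astrocytes, replicate 3 had a summed level of 15 astrocyte markers of 2820 CPM, against 1220 and 1210 in replicates 1 and 2, and the matricellular gene Sparcl1 alone reached 716 CPM there. Of these 15 markers, 13, 13 and 14 exceeded 1 CPM in the libraries labelled astrocytes, among them Apoe, the main lipid carrier of astrocytes, at 264, 260 and 270 CPM. Levels within the list ranged widely. Astrocyte means were 10.6 CPM for Gfap (3.42 to 19.4), 24.1 CPM for Aqp4 (5.64 to 59.7) and 24.2 CPM for Slc1a2 (4.46 to 56.8). S100b had a mean of 0.952 CPM, and Gjb6 was at 0. Values without mKate2+ replicate 2 or astrocyte replicate 3 are given beside some of the results that they moved.

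Promoter windows from RefSeq (build GRCm38.p6, 300 bases around each start) were held for 6 of the 9 genes. Those of 4 genes are printed, 3 whose level was far lower in SB28 cells and Sox2, which was high in all groups. Capitals mark the CCAAT box, searched as CCAAT on both strands and therefore also written ATTGG.
Olig2, chr16:91225300-91225599, plus strand: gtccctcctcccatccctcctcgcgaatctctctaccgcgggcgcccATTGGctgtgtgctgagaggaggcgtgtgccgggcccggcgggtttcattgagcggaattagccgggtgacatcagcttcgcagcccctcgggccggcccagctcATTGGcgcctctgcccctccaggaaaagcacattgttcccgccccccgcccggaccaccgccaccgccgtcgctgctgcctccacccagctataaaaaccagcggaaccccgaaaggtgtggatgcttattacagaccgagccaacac
Pou3f2, chr4:22488317-22488616, minus strand: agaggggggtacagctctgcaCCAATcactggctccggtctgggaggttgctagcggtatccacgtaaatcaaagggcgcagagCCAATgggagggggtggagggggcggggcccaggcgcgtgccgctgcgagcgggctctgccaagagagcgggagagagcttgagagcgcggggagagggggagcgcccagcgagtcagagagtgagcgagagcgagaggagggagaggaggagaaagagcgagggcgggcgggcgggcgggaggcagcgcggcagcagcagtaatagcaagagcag
Pou3f3, chr1:42695518-42695817, plus strand: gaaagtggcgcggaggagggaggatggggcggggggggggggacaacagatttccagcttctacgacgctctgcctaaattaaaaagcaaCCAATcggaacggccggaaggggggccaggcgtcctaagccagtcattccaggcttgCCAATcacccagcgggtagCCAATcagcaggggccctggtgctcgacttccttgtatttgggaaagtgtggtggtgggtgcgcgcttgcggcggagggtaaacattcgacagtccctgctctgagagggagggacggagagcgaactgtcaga
Sox2, chr3:34649745-34650044, plus strand: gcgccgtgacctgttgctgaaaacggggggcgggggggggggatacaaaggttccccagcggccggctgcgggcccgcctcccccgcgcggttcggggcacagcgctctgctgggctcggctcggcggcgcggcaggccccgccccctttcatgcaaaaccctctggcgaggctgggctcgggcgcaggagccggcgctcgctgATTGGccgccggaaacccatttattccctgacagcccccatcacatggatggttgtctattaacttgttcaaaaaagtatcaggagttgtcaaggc

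The windows of Pou3f3, Pou3f2, Olig2 and Sox2 held 3, 2, 2 and 1 CCAAT boxes, whereas those of Nkx2-2 and Npas3 held 0. Of all 32851 windows of this length, 37.4% held at least 1. The 6 windows held more CpG dinucleotides than the median window, with 18 in Pou3f3, 17 in Nkx2-2, 27 in Sox2, 24 in Pou3f2, 18 in Npas3 and 25 in Olig2, against a median of 7 over all windows. The share of all windows with as many or fewer ran from 70.3% for Nkx2-2 to 85.8% for Sox2. The box was thus present both in a gene that SB28 cells expressed strongly and in genes that they hardly expressed. These matches describe the letters of the windows, and binding was not measured.

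Olig1 and Olig2, which lie next to each other on chromosome 16, were among the abundant regulators of the astrocytes and were near the limit of expression in SB28 cells. Olig1 (chr16:91269772-91271933) was at 541, 241 and 304 CPM in astrocytes, at 1.95, 1.20 and 6.43 CPM in mKate2- cells and at 2.75, 1.12 and 1.43 CPM in mKate2+ cells. Its exons overlap the antisense gene Gm15966 over 157 of 2162 bases, and Gm15966 had 0 counts. Every astrocyte library was far above every SB28 library, and within the SB28 cells mKate2- replicate 3 was the highest. Olig2 (chr16:91225457-91228677) was at 268, 159 and 155 CPM in astrocytes, at 1.73, 0.947 and 2.95 CPM in mKate2- cells and at 1.44, 0.585 and 0.585 CPM in mKate2+ cells. Its order among libraries resembled that of Olig1, with astrocyte replicate 1 and mKate2- replicate 3 on top of their groups. In mKate2- cells against astrocytes, Olig1 was 114-fold lower (log2 fold change -6.83, SE 0.69, adjusted P = 0.000115) and Olig2 104-fold lower (-6.70, SE 0.452, adjusted P = 2.03e-05). In mKate2+ cells the log2 fold changes were -7.62 (SE 0.496) for Olig1 and -7.73 (SE 0.447) for Olig2.

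Of all 13356 genes tested in mKate2- cells against astrocytes, 22.4% were called lower and 11.5% higher by an adjusted P below 0.05 together with a log2 fold change beyond 1 in size. In mKate2+ cells, 22.8% of 13342 genes were called lower and 12.2% higher. Of the 9 regulators, 8 exceeded 1 CPM in 2 or more of the 6 libraries, the filter on low counts, in each comparison, and 8 were called lower in both. The median of their log2 fold changes was -6.35 and -6.74, against -0.0381 and -0.0184 over all genes tested. The comparisons share their astrocyte libraries, so that the second is no repeat of the first. Pou3f2 passed the filter only through its level in astrocytes, being above 1 CPM in 0 SB28 libraries, and in the mKate2+ comparison Olig2 and Msi1 were above 1 CPM in only 1 SB28 library each, so that these genes could hardly have entered the test without being lower.

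**Figure D1:**
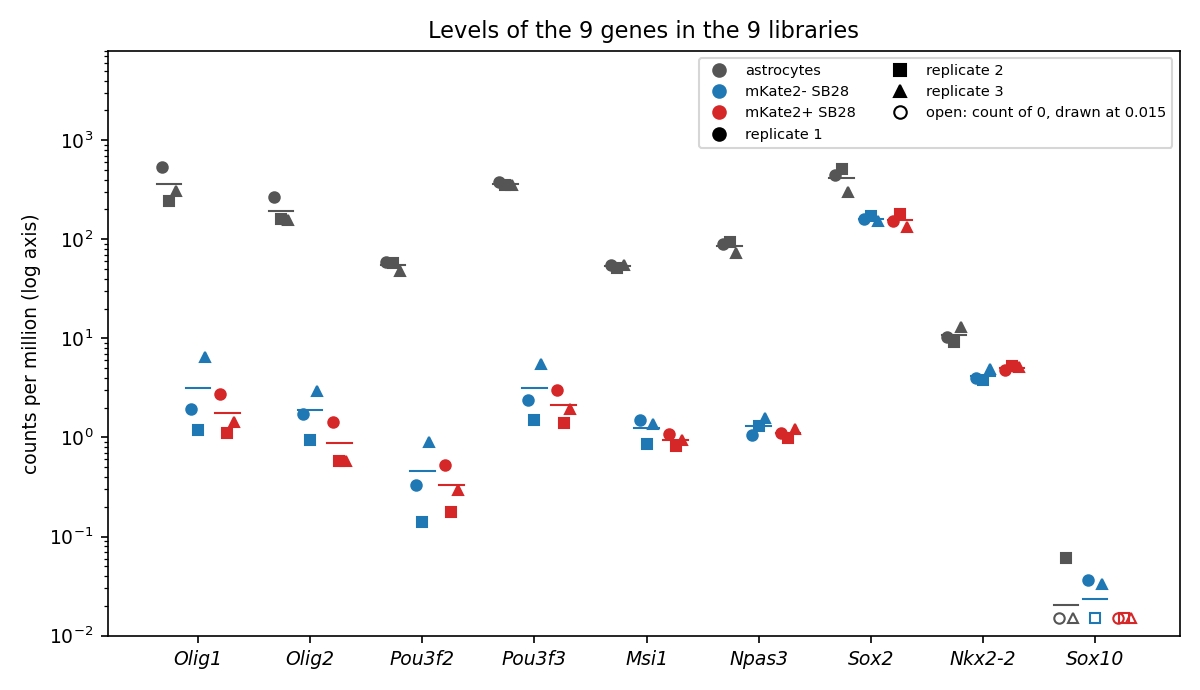
CPM (log axis) of each of the 9 genes in each library, with circles, squares and triangles for replicates 1, 2 and 3, grey for astrocytes, blue for mKate2- and red for mKate2+ SB28 cells, and lines for group means. Olig1, Olig2, Pou3f2, Pou3f3, Msi1 and Npas3 have group means of 54 CPM or more in astrocytes and 3.19 CPM or less in SB28 cells, Sox2 stays in every library at 134 CPM or more, and Sox10 is at or near 0 in all libraries.

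The POU factors behaved like the Olig genes. Pou3f3 (chr1:42695768-42703176) was nearly constant in astrocytes, at 381, 356 and 353 CPM, and was at 2.39, 1.5 and 5.53 CPM in mKate2- cells and at 3.00, 1.4 and 1.96 CPM in mKate2+ cells. Pou3f2 (chr4:22482780-22488366) was at 59.2, 58.2 and 47.9 CPM in astrocytes, whereas the SB28 libraries held only 9, 5 and 27 counts (mKate2-) and 19, 7 and 10 counts (mKate2+), or 0.139 to 0.905 CPM. The gene AC122898.1, which overlaps Pou3f3 on the same strand with 0 shared exon bases, was at 2.21, 2.6 and 2.31 CPM in astrocytes and had 0 to 3 counts per SB28 library. In both POU genes mKate2- replicate 3 was again the highest SB28 library, and no SB28 library reached the astrocyte range. Against astrocytes, Pou3f3 was lower by 115-fold in mKate2- cells (log2 fold change -6.85, SE 0.459, adjusted P = 1.99e-05) and by 164-fold in mKate2+ cells (-7.36, SE 0.283). Pou3f2 was lower by 121-fold (-6.92, SE 0.492) and 157-fold (-7.30, SE 0.335). Without mKate2- replicate 3, the fold changes in mKate2- cells became larger, at -7.84 for Olig1, -7.18 for Olig2, -7.88 for Pou3f2 and -7.53 for Pou3f3.

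Msi1 and Npas3 had fold changes of smaller size, and their low levels in SB28 cells varied less between libraries. Msi1 (chr5:115429599-115455698) was at 55.2, 51.7 and 55.1 CPM in astrocytes, at 1.51, 0.864 and 1.37 CPM in mKate2- cells and at 1.08, 0.815 and 0.936 CPM in mKate2+ cells. The spread among astrocytes was narrow, and the SB28 groups overlapped each other. Msi1 was 43.2-fold lower in mKate2- cells (log2 fold change -5.43, SE 0.222, adjusted P = 4.48e-06) and 54.3-fold lower in mKate2+ cells (-5.76, SE 0.17, adjusted P = 4.92e-06). In the latter comparison Msi1 was above 1 CPM in only 1 mKate2+ library and so entered the test through its astrocyte level. Its paralog Msi2, which binds similar RNA sequences, was also lower but remained well expressed, at 145, 178 and 194 CPM in astrocytes and 57.2 to 69.6 CPM in SB28 cells. The ratio of Msi2 to Msi1 counts was therefore 2.62 to 3.52 in astrocytes and 40.8 to 80.6 in SB28 cells. Npas3 (chr12:53248677-54072175) was at 88.7, 94.5 and 72.8 CPM in astrocytes, at 1.07, 1.31 and 1.58 CPM in mKate2- cells and at 1.11, 0.993 and 1.23 CPM in mKate2+ cells. All SB28 values lay between 0.993 and 1.58 CPM, and the log2 fold changes were -6.00 (SE 0.203, adjusted P = 3.11e-06) and -6.19 (SE 0.187). The antisense genes 4930430O22Rik at Msi1 (0 shared exon bases) and 1700060O08Rik at Npas3 (83 of 6007) had 0 counts in all SB28 libraries and at most 5 in an astrocyte library, and 1700030L22Rik at Npas3 was not analysed here.

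Sox2 differed from these genes in remaining abundant in the tumor cells. Sox2 (chr3:34650405-34652461) was at 444, 513 and 303 CPM in astrocytes, at 160, 170 and 154 CPM in mKate2- cells and at 154, 180 and 134 CPM in mKate2+ cells. The lowest astrocyte library was still above the highest SB28 library. SB28 cells thus held 38.4% ± 1.89 (mKate2-, SD, n = 3) and 37.2% ± 5.47 (mKate2+) of the astrocyte mean. The log2 fold changes were -1.37 (SE 0.193, adjusted P = 0.000556) and -1.35 (SE 0.227, adjusted P = 0.00163). Sox2 lies inside the long noncoding gene Sox2ot, on the same strand and with 0 shared exon bases in GENCODE M21. Sox2ot was at 97.0, 109 and 81.6 CPM in astrocytes and at 7.20 to 10.3 CPM in SB28 cells, with a log2 fold change of -3.29 (SE 0.145, adjusted P = 5.75e-06) in mKate2- cells. Host and nested gene therefore differed in size of change, the ratio of Sox2 to Sox2ot counts being 3.71 to 4.72 in astrocytes and 15 to 21.9 in SB28 cells.

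Nkx2-2 was low in all groups, and its difference was close to the threshold. Nkx2-2 (chr2:147177546-147194243) was at 10.3, 9.23 and 12.9 CPM in astrocytes, at 3.97, 3.79 and 4.89 CPM in mKate2- cells and at 4.8, 5.29 and 5.09 CPM in mKate2+ cells. The astrocyte and SB28 ranges did not overlap. The log2 fold change was -1.34 (SE 0.218, adjusted P = 0.00112) in mKate2- cells and -1.01 (SE 0.213, adjusted P = 0.00464) in mKate2+ cells. The latter call was lost on the size criterion without astrocyte replicate 3 (-0.895), without mKate2+ replicate 1 (-0.956) and without a filter on low counts (-0.953). Nkx2-2 shares 278 of its 2875 exon bases with the antisense gene Nkx2-2os, and since the use of strand in counting is not stated, reads of the pair may be mixed there. Nkx2-2os was at 0.139 to 1.13 CPM in the 9 libraries. A further antisense gene at this locus, 6430503K07Rik, shares 0 exon bases with Nkx2-2 and did not exceed 0.512 CPM.

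Sox10 was not detectable as expressed in any group. The astrocyte libraries held 0, 2 and 0 counts of it, the mKate2- libraries 1, 0 and 1, and the mKate2+ libraries 0, 0 and 0. Up to 3 counts are compatible with a count of 0, which is 0.0764 to 0.123 CPM depending on the library, so no fold change is given. Its close relative Sox8 was at 42.8, 28.0 and 40.8 CPM in astrocytes and at 0.195 to 0.536 CPM in SB28 cells. The astrocytes thus carried Olig1 and Olig2 at high level with Sox8 and without measurable Sox10.

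Compared per length, as CPM per kilobase of exon, the astrocyte order was Sox2 (204 ± 52, SD, n = 3), Olig1 (168 ± 73.1), Olig2 (76.7 ± 25.4), Pou3f3 (49.0 ± 2.05), Npas3 (14.2 ± 1.87), Pou3f2 (9.86 ± 1.12), Msi1 (9.31 ± 0.347), Nkx2-2 (3.76 ± 0.656) and Sox10 (0.00668). In this order Sox2 and Olig1 did not differ beyond their spread, nor did Pou3f2 and Msi1. In mKate2- cells Sox2 stood alone at 78.4 ± 3.85 CPM per kilobase, and the next were Olig1 at 1.48 ± 1.31 and Nkx2-2 at 1.47 ± 0.206, which overlapped. The place of Olig1 rested mainly on mKate2- replicate 3. Olig1 was there at 1.78% of its astrocyte mean, against 0.538% and 0.331% in mKate2- replicates 1 and 2. The mKate2+ cells gave 75.9 ± 11.2 for Sox2 and 1.76 ± 0.0867 for Nkx2-2, now ahead of Olig1 at 0.817 ± 0.399. Sox2 thus had the highest group mean throughout, although Olig1 exceeded it in astrocyte replicate 1 (250 against 216), whereas Nkx2-2, below 7 of the others in astrocytes, was level with or above Olig1 in SB28 cells and above Olig2, Pou3f3, Npas3, Msi1 and Pou3f2.

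**Figure D2:**
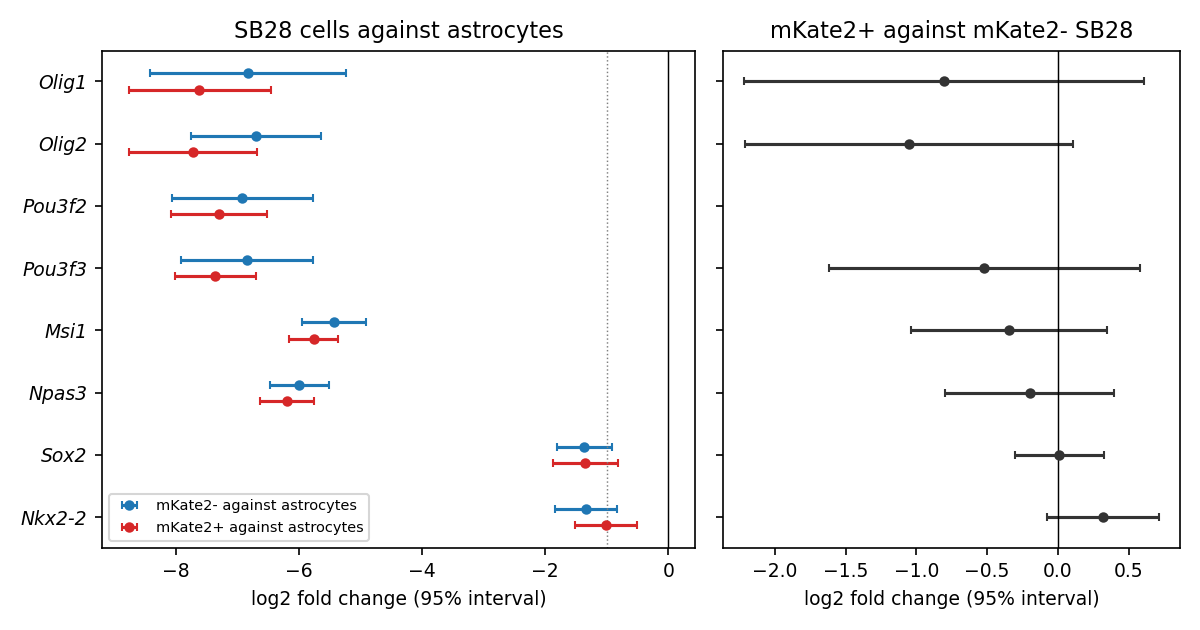
Log2 fold changes of 8 of the genes with their 95% intervals, for mKate2- (blue) and mKate2+ (red) SB28 cells against astrocytes on the left (dotted line at -1) and for mKate2+ against mKate2- SB28 cells on the right, where Pou3f2 was not tested. Sox2 and Nkx2-2 lie between -1.37 and -1.01 on the left and the other 6 between -7.73 and -5.43, and all intervals on the right include 0.

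The low values in SB28 cells were set beside those of astrocyte markers. The summed level of all 15 markers was 398, 409 and 394 CPM in mKate2- cells and 426, 395 and 399 CPM in mKate2+ cells, mostly Gja1 (connexin 43) at 241 to 284 CPM. Gja1 and Clu (clusterin) were not called lower in SB28 cells, and their log2 fold changes in mKate2- cells were 0.432 and 0.237. Over all 13 markers tested, Gja1 and Clu included, the median level in the SB28 libraries was 1.39%, 1.58% and 1.67% (mKate2-) and 1.14%, 0.74% and 1.66% (mKate2+) of the astrocyte mean. Without astrocyte replicate 3, in which several markers were far higher, these medians were 3.96%, 3.99% and 4.8% and 4.01%, 1.25% and 5.4%. Olig1, Olig2, Pou3f2 and Pou3f3 were at 0.538% to 0.891% in mKate2- replicate 1, 0.253% to 0.488% in replicate 2 and 1.52% to 1.78% in replicate 3, and at 0.743% to 0.957%, 0.302% to 0.386% and 0.301% to 0.54% in the mKate2+ libraries. All 4 genes were highest in mKate2- replicate 3. Of the 13 markers, 5 were highest in that library, namely Mlc1, Apoe, Slc1a3, Aqp4 and Gfap, and 8 in another SB28 library, among them Aldh1l1, and Slc1a2 was at 0 there. The ratio of Pou3f3 to Pou3f2 counts was 6.12 to 7.37 in astrocytes and 5.68 to 10.8 in SB28 cells, the highest value resting on 5 Pou3f2 counts. The ratio of Olig1 to Olig2 counts was 1.52 to 2.02 in astrocytes and 1.13 to 2.45 in SB28 cells. Msi1 and Npas3 were at 1.16% to 2.79%. Whether any of these low levels came from astrocyte RNA was not tested, and in sorted bulk cells a few expressing cells and little RNA in every cell cannot be told apart. Sox2 was at 31.9% to 42.8% and Nkx2-2 at 35.1% to 49.0% in the SB28 libraries, or 28.0% to 37.6% and 38.9% to 54.3% without astrocyte replicate 3. Of the 13 markers, 11 were called lower in mKate2- cells, 4 of them (Gfap, Aqp4, Slc1a2 and Fgfr3) tested only because of their astrocyte level. Markers spanned both sides of the Sox2 and Nkx2-2 values, with Gja1 at 121% to 143% and, among those called lower, Aldh1l1 at up to 6.01% and Fgfr3 at up to 5.27%, the latter at up to 15.5% without astrocyte replicate 3.

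**Figure D3:**
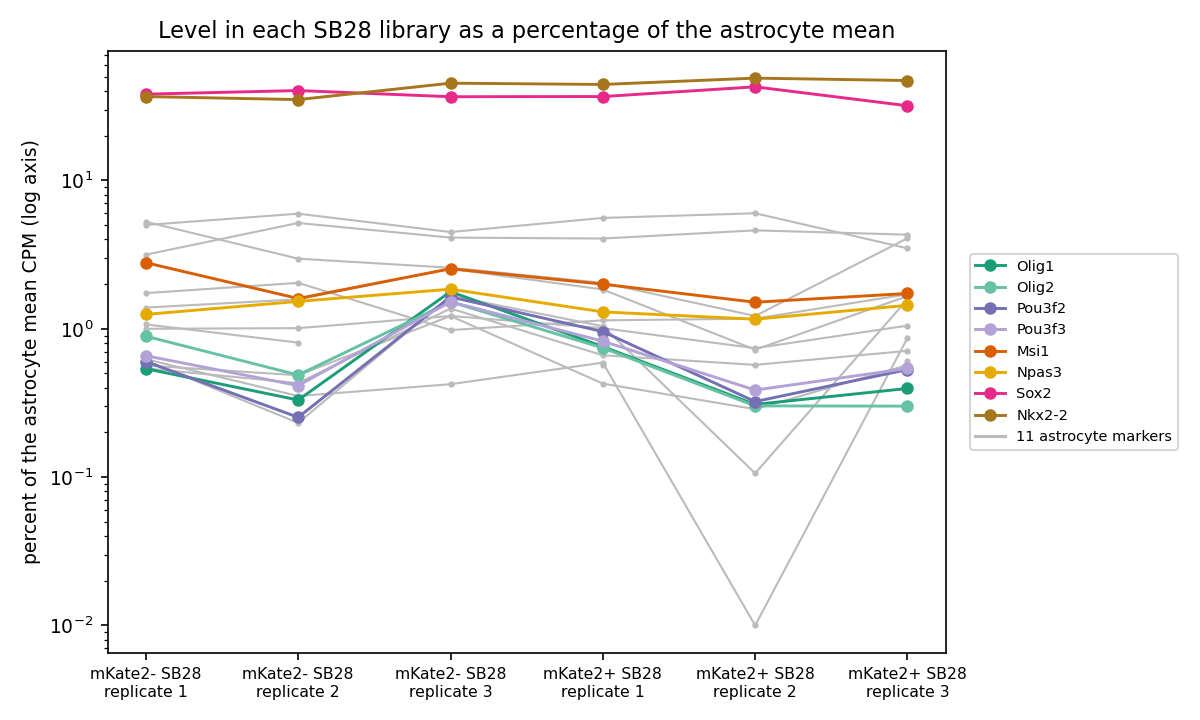
Level of each gene in each SB28 library as a percentage of the astrocyte mean CPM (log axis), with the 11 astrocyte markers called lower in mKate2- cells, as 22.4% of all genes were, in grey (values of 0 not drawn, and Gja1 and Clu, at 96.1% or more, not shown). Sox2 and Nkx2-2 lie at 31.9% to 49.0%, Msi1 and Npas3 at 1.16% to 2.79%, and Olig1, Olig2, Pou3f2 and Pou3f3 have their highest values in mKate2- replicate 3.

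Acquisition of astrocyte mitochondria was examined by comparing mKate2+ with mKate2- SB28 cells. The study selected upregulated genes by fold change, count and unadjusted P. With its rule read as a fold change above 1.5, an unadjusted P below 0.05 and a mean normalized count above 50, and applied here in both directions, 0.194% of 11854 genes were called higher and 0.169% lower, or 23 and 20 genes. These counts moved with single libraries, to 310 higher and 70 lower without mKate2+ replicate 1, 233 and 36 without mKate2+ replicate 3 and 6, 15 and 10 higher without mKate2+ replicate 2, mKate2- replicate 1 and mKate2- replicate 2. None of the 7 regulators tested was called, and across all genes 0 passed an adjusted P of 0.05 with edgeR or with DESeq2, while 241 had an unadjusted P below 0.05 with edgeR. The most precise value was that of Sox2, with a log2 fold change of 0.0104 (95% interval -0.304 to 0.325), so that in this main fit a change in either direction of more than 0.325 lay outside its interval. Its interval was wider in some other fits (-0.414 to 0.446 with all 9 libraries) and narrower in others (-0.219 to 0.258 without a filter on low counts). In the main fit, Nkx2-2 gave 0.319 (-0.0772 to 0.714), with mKate2+ replicate 1 inside the mKate2- range and replicates 2 and 3 above it. Msi1 gave -0.345 (-1.04 to 0.349) and Npas3 -0.20 (-0.795 to 0.395), and for both genes the groups overlapped. Olig2 had the lowest value, -1.05 (-2.21 to 0.106, adjusted P = 0.923), with 2 of 3 mKate2+ libraries below all mKate2- libraries. Olig1 gave -0.804 (-2.22 to 0.609) and Pou3f3 -0.52 (-1.62 to 0.583). These last 2 turned positive without mKate2- replicate 3, at 0.206 and 0.159. Olig2 ranged from -1.59 without mKate2+ replicate 1 (95% interval -2.79 to -0.379, adjusted P = 0.639) to -0.571 without mKate2- replicate 3, and was also below 0 over its whole interval without mKate2- replicate 2 (-1.38, adjusted P = 0.948) and without a filter on low counts (-1.05, 95% interval -1.83 to -0.26). DESeq2 gave -1.06 for it (unadjusted P = 0.0442, adjusted P = 1). Where Olig2 met the fold and unadjusted P parts of the rule, only the count criterion kept it from a call. It had 169 counts in total in mKate2- cells and 95 in mKate2+ cells. Without mKate2+ replicate 2, the values were -0.159 for Sox2, -0.859 for Olig2, -0.588 for Olig1 and -0.322 for Pou3f3. Without a filter on low counts, Olig1 was called lower by the rule as extended here (-0.797, adjusted P = 0.852). The intervals of the low genes are wide, so these data do not show that their levels were alike in the SB28 groups.

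Genes related to the 9 regulators were examined next. Of 19 related family members, 13 were tested and 11 were called lower in mKate2- cells, with 0 higher and a median log2 fold change of -4.39, and the counts were the same in mKate2+ cells (median -4.89). Lower calls made up 22.4% and 22.8% of all genes, but 9 of the 11 were above 1 CPM in fewer than 2 SB28 libraries of either comparison and so entered the test through the astrocytes. The counts and medians rest largely on these genes, whose direction the filter favored. Of the tested genes outside those 9, Arnt2 and Msi2 were called lower in both comparisons, and Sox9 and Arnt in neither. Arnt2, a general bHLH-PAS partner protein of neural cells, was at 267, 316 and 299 CPM in astrocytes and 11 to 16.7 CPM in SB28 cells, a log2 fold change of -4.39 (SE 0.176, adjusted P = 4.48e-06). Sox8, tested only because of its astrocyte level, gave -6.54 (SE 0.365), and Msi2 gave -1.38 (SE 0.123, adjusted P = 6.45e-05). The tested genes not called lower, named after their values were seen, were Sox9 and Arnt. Sox9, an astroglial SOX factor, was at 181, 173 and 173 CPM in astrocytes and 75.3 to 111 CPM in SB28 cells (-0.911, adjusted P = 0.00125), short of the size criterion. Arnt, the ubiquitous partner of bHLH-PAS factors, was at 55.1, 70.6 and 67.0 CPM in astrocytes and 73.6 to 97.6 CPM in SB28 cells (0.555, adjusted P = 0.00301). Among the POU factors of class 3, Pou3f1 was below 0.6 CPM in all 9 libraries and Pou3f4 did not exceed 1.57 CPM.

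Other regulators of neural stem cells and astroglia were examined in the same way. Of 26 such genes, 24 were tested, 22 of which were called lower against astrocytes for the mKate2- libraries, 20 for the mKate2+ libraries and 0 higher for either (medians -3.23 and -2.98), where 22.4% and 22.8% of all genes were called lower. Of these lower calls, 9 in each comparison were likewise tested only because of their astrocyte level. Zbtb20, a zinc finger factor of astrogliogenesis, was at 701, 465 and 603 CPM in astrocytes and 40.4 to 55.2 CPM in SB28 cells (log2 fold change in mKate2- cells -3.50, SE 0.184, adjusted P = 8.73e-06). The nuclear factor I genes Nfix and Nfib, which drive gliogenesis, gave -2.95 (SE 0.159) and -1.29 (SE 0.19), with Nfib still at 118 to 147 CPM in SB28 cells. Sox6, a SOX factor of progenitors, was at 48.4, 44.7 and 45.3 CPM in astrocytes and at 0.102 to 0.637 CPM in SB28 cells (-6.83, SE 0.308). It too was tested only because of its astrocyte level. The regulators thus ranged from genes at near-astrocyte level to genes close to 1% of it, and Sox2 and Nkx2-2 lay in the upper part of that range.

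**Figure D4:**
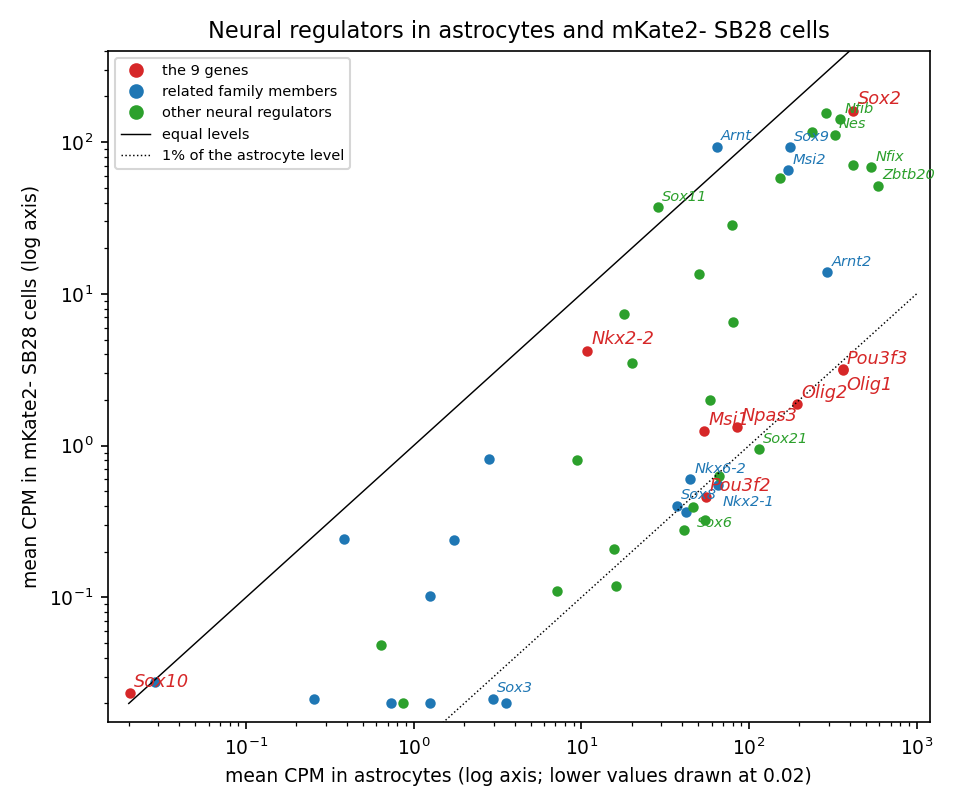
Mean CPM in mKate2- SB28 cells against mean CPM in astrocytes (log axes) for the 9 genes (red), 19 related family members (blue) and 26 other neural regulators (green), with lines at equal levels and at 1% of the astrocyte level. Olig1, Olig2, Pou3f2 and Pou3f3 lie close to the 1% line, whereas Sox2, Nkx2-2, Sox9 and Arnt lie closer to the line of equal levels.

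Markers of the oligodendrocyte lineage were examined because Olig1, Olig2, Nkx2-2 and Sox10 are also its regulators. Of 10 oligodendrocyte precursor markers, only 2 could be tested. The PDGF receptor gene Pdgfra was at 10.3, 23.3 and 23.7 CPM in astrocytes and 8.20 to 13.9 CPM in SB28 cells, and its log2 fold change of -0.707 (SE 0.332, adjusted P = 0.0970) did not pass. Cspg4 (NG2) was at 26.9, 19.3 and 22.6 CPM in astrocytes and 2.05 to 4.78 CPM in SB28 cells (-2.42, SE 0.196, adjusted P = 4.26e-05). Cntn1 and C1ql1 were above 1 CPM in astrocyte replicate 3 alone, at 21.2 and 11.6 CPM, and did not exceed 0.611 CPM in the other 8 libraries. The summed level of the list was 38.3, 44.0 and 82.5 CPM in astrocytes, and Gpr17 was at 0 in all 3 astrocyte libraries. Of 10 markers of myelinating oligodendrocytes, 3 were tested and 2 were lower in mKate2- cells, Cnp (136, 97.5 and 104 CPM in astrocytes, log2 fold change -2.33, SE 0.166) and the myelin regulator Myrf (1.88, 2.48 and 3.02 CPM, -2.71, SE 0.405), whereas Mbp did not exceed 1.22 CPM in any library. Myrf was tested only because of its astrocyte level, and 22.4% of all genes were called lower. Of the 10 precursor markers, 2, 2 and 6 exceeded 1 CPM in the astrocyte libraries, in which Olig2 was at 268, 159 and 155 CPM. The part of oligodendrocyte precursors in the astrocyte values was not tested.

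The astrocyte libraries differed among themselves in which regulators were high. Replicate 1 had the most Olig1, Olig2 and Nkx6-2 (84.6 against 23.1 and 26.3 CPM), whereas replicate 3 had the least Sox2 and the most Nkx2-2. The ventral forebrain factor Nkx2-1 was at 74.6, 112 and 9.56 CPM and Nkx6-1 at 0.0409, 0.0306 and 10.6 CPM, so that replicate 3 was low in the first and alone in the second. Without astrocyte replicate 3, the log2 fold changes of mKate2- cells against astrocytes were -1.56 for Sox2 and -1.21 for Nkx2-2, and those of the other 6 lay between -7.03 and -5.43.

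Markers of microglia and neurons were also examined in the sorted cells. Of 10 microglia markers, 2 were tested. The purinergic receptor gene P2ry12 was at 1.06, 2.54 and 0.484 CPM in astrocytes and at 0 to 0.0555 CPM in SB28 cells. Tmem119, which is also known outside microglia, was at 24.8 to 39.1 CPM in astrocytes and 47.3 to 61.1 CPM in SB28 cells, with a log2 fold change of 0.725 that did not reach the size criterion, and Csf1r was at 0.795 CPM or less in all libraries. Of 10 neuron markers, 5 were tested. The most abundant, Map2, was at 28.0, 44.2 and 37.5 CPM in astrocytes and 15.1 to 22.4 CPM in SB28 cells (-0.751 in mKate2- cells, short of the size criterion). In mKate2- cells 2 were called lower, where 22.4% of all genes were, both tested only because of their astrocyte level, Stmn2 (11.4, 43.4 and 38.5 CPM in astrocytes, log2 fold change -5.19, SE 0.628) and Gad1 (1.23, 0.611 and 2.08 CPM, -4.03, SE 0.68). In mKate2+ cells 3 were lower and 1, the tubulin gene Tubb3 (1.12), was higher, against 22.8% and 12.2% of all genes. Of these 3, Stmn2 and Gad1 were again tested only because of their astrocyte level. Tubb3 gave 0.954 in mKate2- cells, short of the size criterion, so its call there differed by the threshold.

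The genes with the most similar pattern were found by the root mean square difference between log2 CPM profiles centred on their means, over 9 libraries and 13449 genes. For Pou3f2 the nearest gene was Pou3f3 (0.171), followed by March4 and Lama4, and these 2 were also among the 3 nearest to Pou3f3 (0.176 and 0.167). Olig1 was nearest to March4 (0.205), Pou3f3 (0.314) and Lama4 (0.327), and Olig2 ranked 4 (0.337). Olig2 was nearest to Wscd1 (0.15), Six3os1 (0.289) and Rtl8c (0.30). Sox2 was nearest to Hes6 (0.091), a HES family factor, then Sparc (0.127) and Twist1 (0.131), and Nkx2-2 to Mapkapk3 (0.129), Nkiras1 (0.137) and Btbd1 (0.142). Msi1 was nearest to Rasl10b (0.19), Entpd1 (0.197) and Prex1 (0.199), and Npas3 to Zfp536 (0.259), Col12a1 (0.261) and Hdac9 (0.276), the least close of the first neighbors. These distances describe 9 libraries in 3 groups and carry no test.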

How the data were processed

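The deposited data are raw read counts per gene in 9 libraries. According to the methods and the submitters' processing notes, the authors trimmed reads with Trimmomatic 0.36, mapped them to GRCm38 with STAR 2.5.2b and counted uniquely assigned reads with featureCounts (Subread 1.5.2). The annotation release and strand setting are not given in the sources used here. The sort gates in the labels assign CellTrace Violet to tumor cells and the methods assign it to astrocytes, so libraries were grouped by name. Names and exon lengths came from GENCODE M21.

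Each comparison used its 6 libraries, genes above 1 CPM in at least 2 of them, TMM, edgeR 4.0.16 (quasi-likelihood test) and Benjamini-Hochberg adjustment over all genes tested. SB28 cells against astrocytes were called at an adjusted P below 0.05 with a log2 fold change beyond 1 in size. DESeq2 1.42.0 was an alternative. The 95% intervals used the test's degrees of freedom. The procedure was tested on simulated data, for which no values are given here. Total counts make counting error small except for the lowest genes, and limits for counts of 0 cover counting error only. With 3 libraries a side an exact permutation test cannot go below 0.1.

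The 9 genes and the gene lists were chosen with earlier results of these data known. Named from each list were the 3 genes of highest mean CPM, the 2 of smallest P in each direction in mKate2- cells against astrocytes, precursor markers above 1 CPM in a group mean, the 3 genes nearest in pattern (prior count 2) and overlapping genes. Others were named after their values were seen.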

Additional observations from a re-analysis of the deposited data

How the results depend on the processing

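All 96 alternative log2 fold changes of the regulators in mKate2- cells against astrocytes kept their direction and call, as did 93 of 96 in mKate2+ cells against astrocytes, the exceptions being the 3 values of Nkx2-2 given above (-0.953, -0.895 and -0.956). The alternatives were DESeq2, RLE and upper-quartile scaling, no filter, a fit to all 9 libraries, a replicate block and each library left out. In mKate2+ against mKate2- cells, the main counts of 23 genes higher and 20 lower became 62 higher with DESeq2, 224 higher and 35 lower without a filter, with 1 of the regulators (Olig1) called lower, and 44 higher and 13 lower in the fit to all 9 libraries. Leaving out 1 library gave 6 to 310 higher and 16 to 70 lower, the highest counts without mKate2+ replicate 1 (310 and 70) and the lowest number higher without mKate2+ replicate 2. The share of calls that were higher, 53.5%, ranged from 26.3% to 86.6%. The cause was not tested. The sign of Sox2 changed with the replicate block (-0.00558), without mKate2- replicate 3 (-0.0299) and without mKate2+ replicate 2 (-0.159), and those of Olig1 (0.206) and Pou3f3 (0.159) without mKate2- replicate 3. Over the libraries left out in turn, Sox2 ranged from -0.159 to 0.113, Olig1 from -1.24 to 0.206 and Pou3f3 from -0.86 to 0.159. The groups were sorted from shared co-cultures, but the labels do not say that equal replicate numbers mark the same one. The deviations of same-numbered libraries correlated at -0.144 to 0.246, and those of differently numbered libraries at -0.269 to 0.249. The replicate block gave 13 genes higher and 33 lower in mKate2+ against mKate2- cells and changed no call of the 9 genes. With effective library sizes, the astrocyte mean was 51.2 CPM for Msi1 and 344 CPM for Pou3f3. With a prior count of 0.5, Msi1 shared 2 of its 3 nearest genes and Npas3 1 of 3. Percentages of the astrocyte mean without astrocyte replicate 3 were computed after seeing the data.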

Other observations

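Among 6 factors used as marks of pluripotent cells, Pou5f1, Lin28a and Zfp42 were at 0 counts in all 9 libraries, which allows at most 0.123 CPM in the shallowest of them. Nanog did not exceed 0.695 CPM. Klf4, a factor also active in many differentiated cells, was at 132, 131 and 99.6 CPM in astrocytes and at 150 to 174 CPM in SB28 cells, with log2 fold changes of 0.453 (adjusted P = 0.0239) in mKate2- cells and 0.431 (adjusted P = 0.0342) in mKate2+ cells by edgeR, below the size criterion of 1. Myc, a general driver of growth, was at 33.4, 54.0 and 38.9 CPM in astrocytes, 125, 132 and 127 CPM in mKate2- cells and 123, 110 and 123 CPM in mKate2+ cells. It was the 1 gene of this list called higher by both criteria, with a log2 fold change of 1.62 (SE 0.167, adjusted P = 0.000128) in mKate2- cells and 1.57 (SE 0.178, adjusted P = 0.000256) in mKate2+ cells by edgeR's quasi-likelihood test, where 11.5% and 12.2% of all genes were called higher. Sox2 and Myc thus differed in direction between SB28 cells and astrocytes.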
